A study of Danio rerio with 2 samples.

Results

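The matricellular genes described here were measured in endocardial cells of the zebrafish heart. They are the periostin paralogs postna (ENSDARG00000043806) and postnb (ENSDARG00000104267), the osteopontin gene spp1 (ENSDARG00000044276), sparc (ENSDARG00000019353) and the thrombospondin gene thbs1b (ENSDARG00000010785). They are 5 of the 32057 genes listed in the deposited tables, each matched to a single entry by its symbol. The genes were picked because their levels in these same cells were already known to differ between cell groups, so the levels below are a description and carry no test. Hearts came from embryos carrying Tg(kdrl:nls-mCherry), which marks the nuclei of endothelial and endocardial cells, together with Tg(cd41:GFP), which marks thrombocytes and early blood cells. Hearts were pooled and dissociated, and live cells positive for mCherry alone or for both reporters were sorted, combined and loaded on a 10x Genomics Chromium 3′ lane. One library was made at 48 hours post fertilization (hpf) and 1 at 72 hpf, with no replicate and no other treatment. The library titles differ, with the letters EC at 48 hpf and EC-HC at 72 hpf, which are not spelled out there. Age, lane and sort cannot be told apart.

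Matricellular proteins are secreted into the extracellular matrix, where they mainly modulate how cells bind and respond to the matrix instead of building its fibres. Periostin promotes collagen assembly and cross-linking, and in vertebrate hearts it is known as a gene of cushion mesenchyme, valve interstitial cells and activated fibroblasts. Osteopontin is a secreted ligand of integrins and CD44, SPARC binds collagens and is needed for their normal deposition, and thrombospondin 1 is a platelet granule protein that can activate latent TGF-beta. Teleost fish carry a pair of periostin genes in place of the single mammalian gene.

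The 48 hpf library held 2665 cells with 30735426 unique molecular identifiers (UMIs) and a median of 10411 UMIs per cell, and the 72 hpf library held 4125 cells with 33721297 UMIs and a median of 6316. Only 4 barcodes occurred in both libraries. Cells were clustered on 2000 variable genes with the 5 genes left out, and clusters were named by fixed marker lists that do not contain them. Many of the valve and endothelial markers are among the genes that the study listed for its own clusters of these same cells. The study's list for valve interstitial cells also holds sparc, thbs1b and postnb. The names, and the marker levels given below, are therefore not independent of these data. At 72 hpf this gave 350 valve interstitial-like (VIC-like) cells, 380 valve endocardial-like (VEC-like) cells, 1018 chamber endocardial-like cells and, within the blood-like cells, 71 thrombocyte-like cells. Marker levels in these groups were as follows: VIC-like cells held 2786 counts per 1000000 UMIs (CPM) of col1a2, 3305 CPM of angptl7 and 382 CPM of twist1b. VEC-like cells held 820 CPM of alcama and 295 CPM of has2, and chamber cells held 2153 CPM of tmem88a. Thrombocyte-like cells held 861 CPM of mpl and 282 CPM of itga2b. The whole valve endocardial list summed to 31042 CPM in VEC-like and 3897 CPM in chamber cells, and the chamber list to 6854.5 and 29291 CPM. Single markers did not all follow these sums. The valve markers klf2a and nfatc1 were at 498 and 65.9 CPM in VEC-like cells against 1001 and 62.9 CPM in chamber cells. The chamber marker ramp2 was at 722 against 701 CPM. A further 416 cells at 72 hpf formed a cluster led by gstm.3, cdh4, esr1 and postna, which met no marker list of a named cell type and is called the cdh4 cluster. Its 50 leading genes did include 4 of the 18 markers of a cluster that the study left as unknown. At 48 hpf the VEC-like cells numbered 601 and the largest cluster, of 1234 cells led by fstl1a, esm1, p3h2 and ms4a17a.11, stayed unnamed, while only 3 cells were VIC-like. All intervals below are exact 95% intervals that cover counting error only.

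Over whole libraries, 4 of the genes were at low levels at 48 hpf and far higher at 72 hpf, and sparc was abundant at both ages. The pooled level of postna was 5.08 CPM at 48 hpf and 109 CPM at 72 hpf. That of postnb was 1.76 and 36.7 CPM, that of spp1 5.37 and 166 CPM, and that of thbs1b 8.43 and 123 CPM. For sparc the 2 values were 311 and 371 CPM. In such sums more cells of a type and more RNA per cell cannot be told apart, so levels within cell groups are given next.

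**Figure D1:**
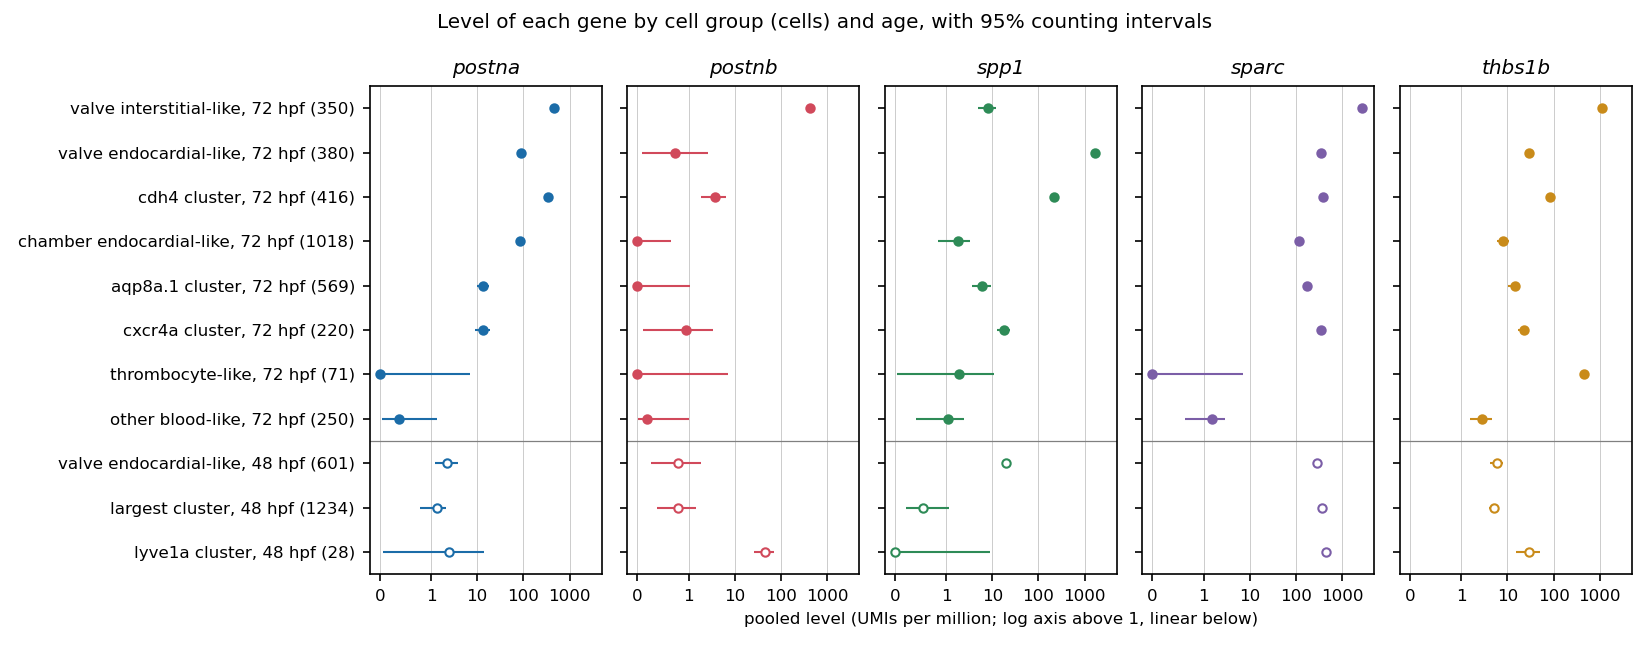
Pooled level of each gene (CPM, log axis above 1 and linear below) in cell groups of the 72 hpf library and the 48 hpf library, with exact 95% counting intervals as lines, 48 hpf groups as open points and cell numbers in brackets. VIC-like cells have the highest postna, postnb, sparc and thbs1b levels at 72 hpf and VEC-like cells the highest spp1 level.

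Among the periostins, postna was spread over several endocardial groups and postnb was nearly confined to one. In the 72 hpf library the highest postna level, 462 CPM (437 to 488), was found in VIC-like cells. A group of 38 G2/M-phase cells led by cdk1 followed at 354 CPM (302 to 413) and the cdh4 cluster at 336 CPM (315 to 357), and these 2 did not differ beyond their intervals. Next came VEC-like cells at 90.6 CPM (79.7 to 103) and chamber cells at 83.9 CPM (76.5 to 91.7), whose intervals also overlapped. A larger G2/M-phase group of 247 cells was level with these at 83.7 CPM (72.7 to 95.9). The remaining endocardial groups were lower, with 54.3 CPM in S-phase cells, 13.7 CPM in the aqp8a.1 cluster and 13.2 CPM in the cxcr4a cluster. No postna UMI was found in the 71 thrombocyte-like cells, which allows a level of up to 5.79 CPM. The 250 other blood-like cells that were given no single lineage, called other blood cells, held 0.372 CPM. A group of 25 blood-like cells that also carried endothelial genes held 69.3 CPM (48.0 to 96.9), from 34 UMIs in 8 cells. A postna UMI was present in 74.6% of VIC-like, 56.5% of cdh4-cluster, 26.1% of VEC-like and 28.9% of chamber cells, against 0.80% of other blood cells although those were read more deeply, at a median of 20780 UMIs against 5126 to 7389. After every cell was thinned to 2000 UMIs the same shares were 45.7%, 36.8%, 13.2%, 13.5% and 0%.

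The level of postnb was 433 CPM (409 to 458) in VIC-like cells, and these 350 cells, 8.49% of the 72 hpf library, held 96.6% of its postnb UMIs against 34.7% of its postna UMIs. Elsewhere at 72 hpf it was 3.64 CPM in the cdh4 cluster and 0.737 CPM in VEC-like cells, the latter from 2 UMIs. None of the 1018 chamber cells held a postnb UMI, which allows up to 0.529 CPM, nor did any thrombocyte-like cell. The only other groups of 19 or more cells above 10 CPM were the 25 blood-like cells with endothelial genes, at 34.7 CPM from 17 UMIs in 2 cells, and 28 cells at 48 hpf, at 44.4 CPM (26.3 to 70.2). In these 28 cells postna was at 2.47 CPM, so the pair stood there in the opposite order to that of the cdh4 cluster. The 28 cells fell into a cluster led by lyve1a. Its lymphatic endothelial name came from its 116 cells at 72 hpf, where postnb was at 1.47 CPM. At resolution 1.0 the 28 cells met a different marker list, of no named cell type, that holds tlx2 and stab2.

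In the 72 hpf library, VIC-like cells were the one group of more than 100 cells with 10 or more UMIs of each paralog in which the pair was close to balanced. They held 1195 postnb and 1276 postna UMIs, a ratio of 0.937 (0.865 to 1.01). In the cdh4 cluster the ratio was 0.0109, from 11 against 1014 UMIs. Of the 350 VIC-like cells, 174 held UMIs of both genes, 87 of postna only, 58 of postnb only and 31 of neither. A postnb UMI was seen in 66.7% of the cells with postna and in 65.2% of those without it, and after thinning in 41.3% and 49.5%. Of the 416 cells in the cdh4 cluster, 232 held postna only, 1 postnb only and 3 both.

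Balance over the group did not mean balance in each cell. Among the 203 VIC-like cells with 5 or more periostin UMIs, the median share of postnb was 50.0%, yet 50 cells had a share of 10% or less and 27 had 90% or more, while 73 lay between 30% and 70%. The plot of shares per cell therefore has a peak at its low end and a second broad rise above 50%.

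**Figure D2:**
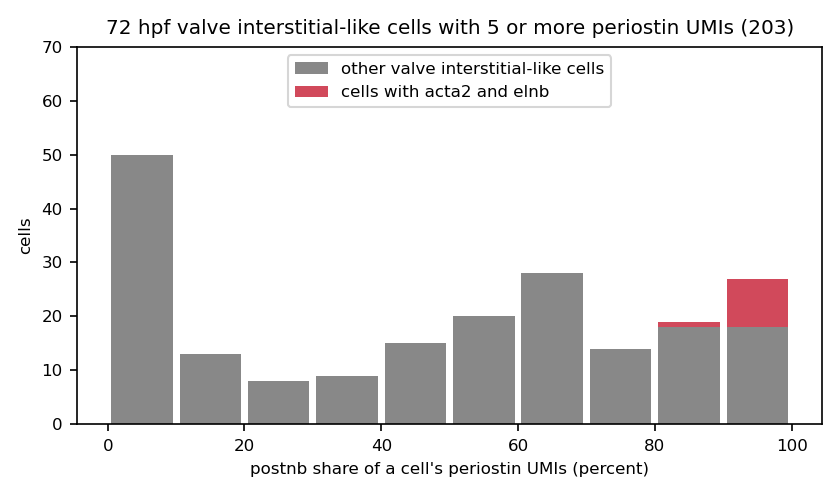
Number of 72 hpf VIC-like cells (y axis) by the share of postnb among a cell's periostin UMIs (x axis, percent), for the 203 cells with 5 or more such UMIs, with the cells that carry acta2 and elnb in red. The lowest bin holds 50 cells and the highest 27, of which 9 are acta2/elnb cells.

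A finer clustering set apart 25 of the VIC-like cells, led by rbp4, fn1b, ifitm1 and fbln5, that carried the smooth muscle actin gene acta2 at 895 CPM and the elastin gene elnb at 295 CPM. They also held the epicardial markers tbx18, at 121 CPM, and tcf21, at 62.9 CPM, and their cell type was not tested. In these 25 cells postnb was at 953 CPM (824 to 1096) and postna at 29.0 CPM (10.7 to 63.2), a ratio of 32.8 (14.8 to 90.6). Without them the ratio in the other 325 VIC-like cells was 0.786 (0.723 to 0.854). The ratio also moved with the level of general endothelial genes such as cdh5, the endothelial cadherin gene. When the 325 cells were ranked by the sum of those genes and cut at 252 and 697 CPM, the ratio of postnb to postna was 1.71 (1.48 to 1.98) in the 109 lowest cells, 0.709 in the 108 middle cells and 0.328 (0.274 to 0.390) in the 108 highest cells. These are ranges of a score and not cell types, and 49 cells lay within 10% of a cut. Across the ranges postna went from 367 to 530 and 584 CPM and postnb from 627 to 376 and 191 CPM. Mural and smooth muscle markers moved with the ranges as well, although the 25 cells were left out, with a median of 108 CPM per cell in the lowest range and 0 in the others. A sub-cluster of 115 VIC-like cells with acta2 at 280 CPM and cdh5 at 35.4 CPM had a ratio of 2.89. It came from a clustering of all VIC-like cells, the 25 included, so its levels are not separate from theirs. Endothelial and mural levels thus moved in opposite directions over these cells, and their parts were not tested. Cells with both genes numbered 69, 66 and 36 in the same order, so both genes were found in single cells at each endothelial level.

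The other 2 genes of VIC-like cells shared the direction of postnb over these ranges. The sparc level was 3190, 2947 and 1900 CPM and the thbs1b level 1445, 1235 and 1014 CPM from the lowest to the highest endothelial range, while cdh5 itself was 8.73, 134 and 824 CPM. Without the cells of highest doublet score the ratio of postnb to postna in the highest range was 0.290, from 99 cells. All cells of the lowest and middle ranges were kept, so the removed cells lay in the highest range. The scores came from Scrublet, a doublet caller that called far fewer doublets here than an assumed rate gives. The reason was not tested, and the value is no check on doublets. Doublets of VIC-like and endocardial cells can carry both sets of genes, and their part in the order of these ranges was not tested.

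**Figure D3:**
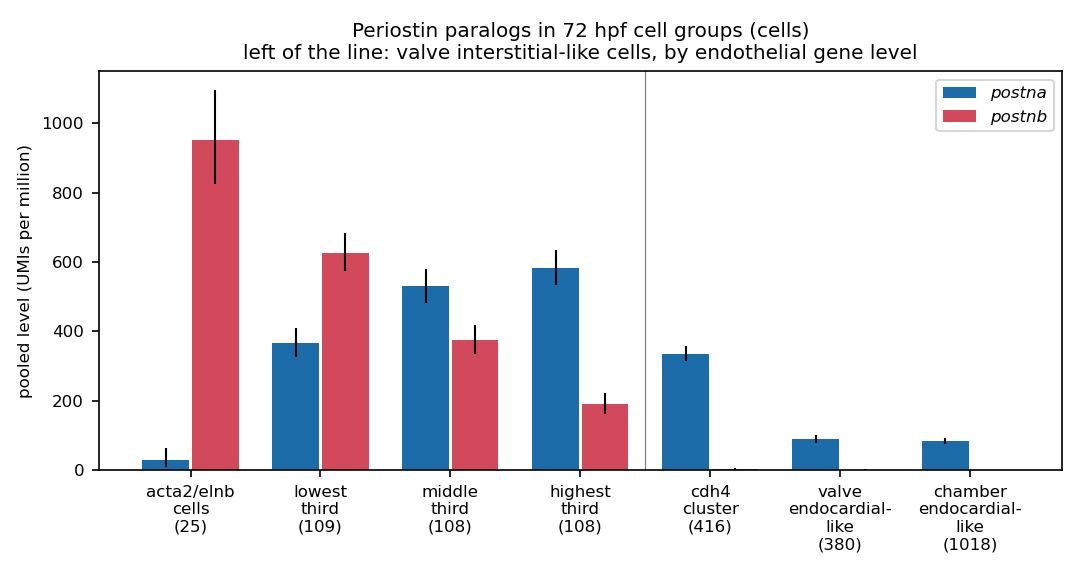
Pooled postna and postnb levels (CPM, bars from 0, with exact 95% counting intervals) in 72 hpf cell groups, with VIC-like cells split by endothelial gene level left of the line. The postnb bar falls and the postna bar rises from the lowest to the highest endothelial range, and postnb is near 0 in the cdh4 cluster, VEC-like and chamber cells.

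Osteopontin showed the converse distribution to postnb. The spp1 level was 1692 CPM (1643 to 1741) in VEC-like cells, which made up 9.21% of the 72 hpf library and held 82.0% of its spp1 UMIs. The 38 cells of the cdk1 cluster followed at 491 CPM and the cdh4 cluster at 212 CPM (196 to 230), while the 247 other G2/M-phase cells held 2.82 CPM. It was 17.9 CPM in the cxcr4a cluster, 7.97 CPM (5.00 to 12.1) in VIC-like cells and 1.76 CPM in chamber cells, and 1 UMI was found in thrombocyte-like cells. A UMI of spp1 was present in 65.3% of VEC-like, 16.8% of cdh4-cluster and 2.57% of VIC-like cells, and in 2.00% of other blood cells, which were read more deeply. After thinning the share was 57.1%, 11.8%, 0.857% and 0% in the same order, and the level in other blood cells was 1.12 CPM (0.409 to 2.43). The 25 blood-like cells with endothelial genes held 10.2 CPM of spp1, from 5 UMIs.

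Within VEC-like cells spp1 was uneven. It was absent from 132 of the 380 cells, reached 10 or more UMIs in 130 and was highest at 233 UMIs in 1 cell, and the 38 richest cells held 55.3% of the UMIs. Sub-clustering placed 39.5% of them in 59 cells, at 4083 CPM (3897 to 4275). This sub-cluster is named here by vcana, the versican gene of the cardiac jelly, which was not the first of its leading genes. The level of vcana was 250 CPM in it, 266 CPM in a sub-cluster of 17 cells and 19.4 to 105 CPM in the rest. In those 17 cells spp1 was at 1717 CPM. Outside the vcana sub-cluster, spp1 was between 780 and 1717 CPM in the other 5 sub-clusters. In the cdh4 cluster it was still more restricted: 346 of 416 cells held none and the 42 richest held 94.1% of the UMIs.

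The sub-clusters of VEC-like cells did not order the 5 genes alike. Where spp1 was highest, in the vcana sub-cluster, sparc was at 128 CPM and postna at 65.3 CPM. The 78 cells of the cilp sub-cluster held 206 CPM of postna (171 to 248), 523 CPM of sparc and 1537 CPM of spp1. The 62 cells of the crhbp sub-cluster held 36.3 CPM of postna, 538 CPM of sparc and the lowest spp1 level, 780 CPM. Counted per cell, 133 VEC-like cells held both spp1 and sparc, 115 spp1 only, 98 sparc only and 34 neither. The sub-clusters were made from these cells, so the order is a description.

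**Figure D4:**
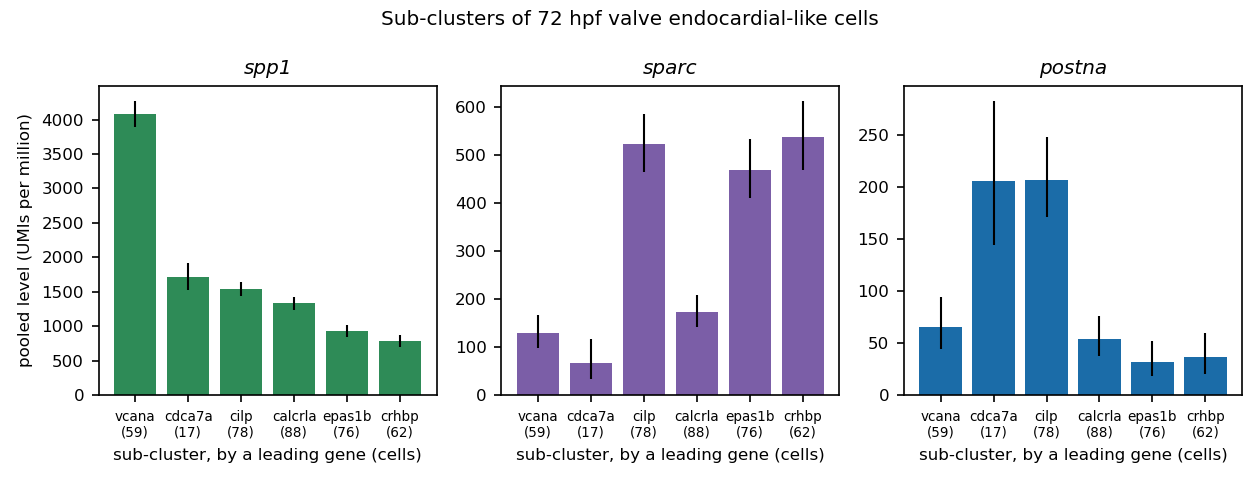
Pooled levels (CPM, bars from 0, with exact 95% counting intervals) in the sub-clusters of 72 hpf VEC-like cells, each named by a leading gene with its cell number, in one panel per gene. The vcana sub-cluster of 59 cells has the highest spp1 bar, 4083, and the crhbp and cilp sub-clusters have the highest sparc bars, 538 and 523.

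The sparc gene was the most widely found of the 5. VIC-like cells held 2699.7 CPM (2639 to 2762) and 59.6% of the UMIs at 72 hpf, with a UMI in 98.6% of cells and a median of 19 UMIs per cell. The next 3 groups at that age, the cdh4 cluster at 384 CPM (362 to 407), the cxcr4a cluster at 348 CPM (323 to 374) and VEC-like cells at 342 CPM (320 to 364), overlapped in their intervals. Lower levels were found in the aqp8a.1 cluster, at 173 CPM, and in chamber cells, at 117 CPM (108 to 126). No sparc UMI was found in thrombocyte-like cells and other blood cells held 1.49 CPM. The 25 blood-like cells with endothelial genes held 135 CPM (104 to 171), with a UMI in 14 of them. At 48 hpf, before VIC-like cells were present in number, the gene was at 447 CPM in the 28 cells of the lyve1a cluster, 368 CPM in the largest cluster, 303 CPM in G2/M-phase cells and 288 CPM in VEC-like cells. The 116 cells of the lyve1a cluster at 72 hpf held 42.7 CPM.

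Thrombospondin was the one gene of the 5 above 10 CPM in both valve and thrombocyte-like cells. The thbs1b level was 1145 CPM (1105 to 1186) in VIC-like cells and 452 CPM (396 to 513) in thrombocyte-like cells, the former 2.54-fold higher. The 25 blood-like cells with endothelial genes followed at 169 CPM, with 49 of their 83 UMIs in 1 cell, then the 38 cells of the cdk1 cluster at 119 CPM and the cdh4 cluster at 83.1 CPM, while the 247 other G2/M-phase cells held 13.7 CPM. It was 29.8 CPM (23.7 to 37.1) in VEC-like cells and 8.10 CPM in chamber cells. A UMI was present in 86.0% of VIC-like and 77.5% of thrombocyte-like cells, and in 2.80% of other blood cells, which were read more deeply. After thinning these shares were 72.6%, 53.5% and 0%. VIC-like cells held 76.4% and thrombocyte-like cells 5.66% of the thbs1b UMIs at 72 hpf. At 48 hpf the highest level in a group of 25 or more cells was 48.9 CPM, in the cxcr4a cluster.

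Set side by side at 72 hpf, VIC-like and VEC-like cells differed at least 2-fold in all 5 genes. Levels in VIC-like cells were 5.10-fold higher for postna (4.45 to 5.87), 588-fold for postnb (162 to 4858), 7.91-fold for sparc and 38.4-fold for thbs1b. The spp1 level was 212-fold higher in VEC-like cells (140 to 339). Over all 7496 genes at 10 CPM or more in either group, 14.1% were at least 2-fold higher and 9.24% at least 2-fold lower in VIC-like cells. The 4 higher and 1 lower of the 5 genes were picked with these differences known, so nothing is read from their number. The VIC-like cells also held more of the mural and smooth muscle marker list (269 CPM summed against 16.2 CPM, with 0 and 2 of its 6 measured genes at 0), of S-phase genes (1625 against 553 CPM) and of G2/M genes (963 against 66.7 CPM), and the part of these in the differences was not tested. The cardiomyocyte list summed to 402 against 840 CPM, with 3 and 4 of its 9 measured genes at 0, but this order came from tnnt2a (91.7 against 821 CPM). The myosin light chain genes went the other way, myl7 at 248 against 0.737 CPM and cmlc1 at 17.8 against 0.737 CPM, and the part of cardiomyocyte RNA was not tested either. Where cdh4-cluster cells joined the VEC-like cells, the postna difference was 2.11- to 2.17-fold, that of postnb 179.5- to 200.2-fold, that of thbs1b 19.4- to 20.0-fold and that of spp1 96.0- to 114-fold. When cells were classed one by one the spp1 difference was 8.32-fold.

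Against chamber cells, VIC-like cells were 5.51-fold higher for postna, at least 819-fold for postnb, 23.1-fold for sparc and 141-fold for thbs1b. All 4 of the genes compared passed 2-fold, where 18.1% of genes were higher and 8.78% lower, and spp1 was under 10 CPM in both groups. VEC-like cells were 960-fold higher than chamber cells for spp1, 2.92-fold for sparc and 3.68-fold for thbs1b. For postna the ratio was 1.08 (0.923 to 1.26) in this grouping. Where cdh4-cluster cells joined the VEC-like cells, postna was at 213 to 219.5 CPM in those cells and at 57.6 to 89.5 CPM in chamber cells. In that comparison 13.8% of genes were higher and 9.32% lower, and 3 of the 4 genes compared were higher.

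Between ages, VEC-like cells at 72 hpf were compared with those at 48 hpf. Levels of spp1 went from 19.8 to 1692 CPM, an 85.6-fold difference (71.6 to 103), and those of postna from 2.23 to 90.6 CPM, a 40.6-fold difference (23.8 to 75.4). For thbs1b the difference was 5.06-fold and for sparc 1.19-fold (1.1 to 1.29). The share of VEC-like cells with spp1 went from 7.99% to 65.3%, and from 1.5% to 57.1% at 2000 UMIs per cell. Higher levels at 72 hpf were found for 11.4% of genes and lower ones for 5.46%, and 3 of the 4 genes compared were higher. The 2 ages were held by different clusters, 596 of the 601 cells at 48 hpf in one and 378 of the 380 at 72 hpf in another, and the direction of sparc was not stable, from 0.907 to 2.65 over the groupings tried. Over the same groupings spp1 remained 25.3- to 143-fold and postna 6.31- to 95.2-fold higher.

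No cluster of chamber endocardial-like cells was found at 48 hpf, so 72 hpf chamber cells were set beside the largest 48 hpf cluster. In that cluster the chamber marker list summed to 19068 CPM against 29291 CPM. It also held more S-phase genes, at 2935 against 412 CPM, and more valve endocardial markers, at 10928 against 3897 CPM. Within the 48 hpf library its leading genes were mcm2, dnase1l4.1, mcm5 and mcm6. The postna level was 62.2-fold higher in the 72 hpf cells, at 83.9 against 1.35 CPM, and sparc was 3.15-fold lower, at 117 against 368 CPM. Among all genes 10.7% were higher and 9.34% lower, and of the genes compared here 1 passed in each direction. Other groupings gave 31.1- to 232-fold for postna and 2.10- to 3.95-fold for sparc. In S-phase cells at 72 hpf, postna was 40.3-fold higher and sparc 2.36-fold lower than in the same 48 hpf cluster. The part of the cell cycle in these differences was not tested.

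A small number of 48 hpf cells carried most of the postna at that age. There were 37 of them, 1.39% of the library, that fell into clusters made up mostly of 72 hpf cells, and they held 85 of the 156 postna UMIs, or 164 CPM against 2.35 CPM in the rest. Only 13 of the 37 cells held a postna UMI. A single VIC-like cell held 27 of the 85 UMIs and a single G2/M-phase cell 13, so the share rests on few cells. The 37 cells also held 33 of the 259 thbs1b UMIs but only 1 of 54 postnb and 4 of 165 spp1 UMIs. None of these cells shared a barcode with the 72 hpf library. Among all 48 hpf cells, 41 held postna only, 35 postnb only and 3 both.

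Within the blood, thbs1b was 188-fold higher in thrombocyte-like than in other blood-like cells (112 to 341), at 452 against 2.40 CPM, when the 25 blood-like cells with endothelial genes were left out. Here and in the gene lists below, other blood-like cells were the 250 other blood cells together with 19 erythroid-like and 23 macrophage-like cells. With the 25 cells counted in, a choice made after seeing the data, the others held 14.6 CPM and the difference was 31.0-fold (24.4 to 39.7). Without them it was the only 1 of the 5 genes at 10 CPM or more in either group, where 27.4% of genes were higher and 17.5% lower. The thrombocyte marker list summed to 3934 CPM in the thrombocyte-like cells and 133 CPM in the other blood-like cells. The thrombocyte-like cells also held 4655.5 CPM of the erythroid list, against 14059 CPM, and 3286 CPM of G2/M genes, against 1446 CPM. Of the erythroid list, gata1a was at 156 against 32.7 CPM. The part of these in the difference was not tested.

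Other genes of the same matrix system were taken from 4 lists, of which 92 of 110 names were found. Between VIC-like and VEC-like cells, 12 other matricellular genes could be compared, of which 8 were higher and 3 lower in VIC-like cells, with a median difference of 3.02 on the log2 scale against 0.07 over all genes. The higher ones included tenascin C, tnc, at 48.9 against 0 CPM, the connective tissue growth factor genes ccn2a, at 203 against 8.10 CPM, and ccn2b, at 196 against 17.3 CPM, and the elastic fibre gene fbln5, at 187 against 8.10 CPM. As given above, fbln5 was a leading gene of the 25 acta2/elnb cells, whose part in this value was not tested. The lower ones were efemp2b, at 1.45 against 124 CPM, ccn1l2, at 2.17 against 78.1 CPM, and spock3, at 9.06 against 29.1 CPM. Like spp1, these 3 were thus higher in the VEC-like cells. Over all genes 14.1% were higher and 9.24% lower in VIC-like cells. Of the 12 matricellular genes, only ccn1, ccn2b and fstl1b reached 10 CPM in both groups. In this and the list comparisons below, genes could enter through a single group. Their counts and medians were therefore partly set by that filter, which also applied to the shares over all genes.

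Of 22 matrix partners and processing enzymes 12 were higher and 1 lower in VIC-like cells, with a median of 1.11. The lysyl oxidase gene loxa, whose product cross-links collagen, was at 192 against 1.47 CPM, and the fibronectin gene fn1b at 90.6 against 5.16 CPM. Like fbln5, fn1b was a leading gene of the 25 acta2/elnb cells, whose part in this value was not tested. Several collagens of this list and serpinh1b also served to name the VIC-like cells, so their count is not independent of the grouping. Of 8 receptor genes 1 was higher, the integrin gene itga9 at 47.8 against 17.7 CPM, and 2 were lower, itgb5 at 25.4 against 127 CPM and itga5 at 54.4 against 154 CPM. Their median was 0.04, near that of all genes. Of 12 TGF-beta genes 4 were higher and 1 lower, where 14.1% of all genes were higher and 9.24% lower.

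Against chamber cells, VIC-like cells were higher for 5 and lower for 4 of 13 matricellular genes and higher for 16 and lower for 5 of 22 matrix genes. They were higher for 4 of 8 receptors and 4 of 11 TGF-beta genes, where 18.1% of all genes were higher and 8.78% lower. The basement membrane collagens col4a1 and col4a2 were among the lower ones, at 84.1 against 502 CPM and 60.5 against 346 CPM. VEC-like cells against chamber cells gave 3 higher and 5 lower of 9 matricellular genes, 5 and 1 of 8 receptors, 11 and 5 of 20 matrix genes and 2 and 0 of 11 TGF-beta genes. Over all genes 13.8% were higher and 9.32% lower there. The medians in these 2 comparisons were 0.78, 2.52, 0.99 and 0.61 against 0.25 for all genes, and -2.06, 1.44, 1.42 and 0.37 against 0.17, in the order matricellular, matrix, receptor and TGF-beta.

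From 48 to 72 hpf, VEC-like cells were higher for 4 and lower for 2 of 8 matricellular genes, higher for 3 of 8 receptors, higher for 10 of 18 matrix genes and higher for 4 and lower for 1 of 11 TGF-beta genes. Over all genes 11.4% were higher and 5.46% lower, and the list medians were 1.08, 0.84, 1.09 and 0.50 against 0.09. The elastic fibre gene efemp2b was at 124 against 14.2 CPM and itgb5, a partner of the alpha-V integrin that binds osteopontin in mammals, at 127 against 16.3 CPM. The follistatin-like gene fstl1a went the other way, at 1.84 against 20.2 CPM. Chamber cells against the largest 48 hpf cluster gave 3 higher and 2 lower of 9 matricellular genes, 0 and 1 of 7 receptors, 5 and 4 of 17 matrix genes and 1 and 1 of 8 TGF-beta genes, where 10.7% of all genes were higher and 9.34% lower and the medians were 0.05, 0.22, 0.12 and 0.07 against -0.05. In thrombocyte-like against other blood-like cells, 4 of 5 matricellular genes, 5 of 6 receptors, 4 of 4 matrix genes and 5 of 7 TGF-beta genes were higher, where 27.4% of all genes were, with medians of 2.94, 1.99, 4.39 and 1.48 against 0.26. The macrophage marker mfap4 of the matricellular list was lower, at 0 against 101 CPM, as was 1 TGF-beta gene, nrros, where 17.5% of all genes were. The higher genes included itgb3b, the beta subunit of the platelet fibrinogen receptor and itself a naming marker, at 174 against 0.160 CPM, and tgfb1b, at 25.1 against 1.60 CPM. Of the higher genes, only tgm2b and smad7 reached 10 CPM in the other blood-like cells. The direction of the rest, and the medians, were thus largely set by the filter. The 71 thrombocyte-like cells held 518310 UMIs in all, so genes near 10 CPM there, such as tnr and itgb5, rest on few UMIs.

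Profiles over 19 combinations of cell group and age were used to find genes with the most similar patterns among 4481 genes, as a description only. The profiles share libraries and differ in depth. The genes nearest to postna were FP016248.1, cpxm1b, fibinb, abi3bpb and esr1, with Pearson's r from 0.89 to 0.93, and 2 of these 5 were highest in the cdh4 cluster. Nearest to postnb were snai2, rrbp1b, lmo4b, ppdpfa and col2a1b, with r from 0.78 to 0.89 and all highest in VIC-like cells. For spp1 they were nrg1, kif5ba, BX465186.2, LO018183.1 and filip1b, with r from 0.86 to 0.90. For sparc they were serpinh1b, which encodes a collagen chaperone, kdelr3, fkbp10b, fkbp9 and angptl4, with r from 0.92 to 0.95. For thbs1b they were enpp1, fn1b, angptl7, angpt1 and hbegfb, with r from 0.75 to 0.84, the last of them highest in thrombocyte-like cells. The paralogs postna and postnb had an r of 0.39 with each other, below the 0.64 between postnb and thbs1b and the 0.62 between postna and spp1.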

How the data were processed

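Single-cell RNA was counted in sorted heart cells at 48 and 72 hpf, 1 library each. The deposited matrices hold whole-number UMI counts, which the authors left without normalization. The submitters' processing notes name STARsolo, Scanpy and danRer11, and the versions and annotation were not given in the sources used here. The barcodes in the files matched the stated cell number at 72 hpf and were slightly more at 48 hpf, and no cell was removed. Counts were scaled to 10000 per cell, logged and clustered with scanpy 1.11.5 and leidenalg 0.10.2 in Python 3.11.15 (2000 variable genes without the 5 genes described, 30 principal components, 15 neighbours, resolution 0.6, no batch correction). Names came from fixed markers: the 50 leading genes of a cluster had to include at least 3 markers of a type, and more than of any other. Scrublet called 7 and 2 doublets where an assumed rate of 0.8% per 1000 cells gives 57 and 136. The reason was not tested, its calls were not used and any doublets were left in. Levels are pooled counts per 1000000 UMIs (CPM), with exact Poisson intervals, exact Clopper-Pearson intervals for shares and exact conditional intervals for ratios (scipy 1.17.1). A level of 0 was bounded by 3 counts. Folds over all genes had 1 added to each CPM, among genes at 10 CPM or more in either group. With 1 library per age no test was made. The 2-fold call and the Poisson and ratio intervals were tested on simulated Poisson counts. Clustering, naming and sub-clustering were not simulated. Levels of different genes were not corrected for capture, and UMIs of near-identical paralogs could be split by the counting. The genes, lists and comparisons were chosen with earlier results of these data known. Named genes were the 5 genes, for each the 5 of most similar profile, the 4 leading genes of a cluster and up to 4 genes per list and comparison past 2-fold. Alternatives were other resolutions, libraries clustered alone, the 5 genes included, list genes left out, cells classed one by one, cells of highest doublet score or under 5000 UMIs removed, means over cells, and other minima and added CPM.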

Additional observations from a re-analysis of the deposited data

How the results depend on the processing

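Group ratios were recomputed for VIC-like against VEC-like cells in all 5 genes and for VEC-like cells between ages in spp1, postna and sparc. Those of chamber cells against the largest 48 hpf cluster in postna and sparc, and of thrombocyte-like against chamber cells in thbs1b, were also recomputed. None of these that passed 2-fold changed direction, and other ratios between groups were not recomputed. Of 101 recomputed values of these ratios, 62 moved by less than their counting interval and 39 by more, and the cause was not tested. In VIC-like cells postnb to postna was 0.780 at resolution 1.0 and 0.679 with cells classed one by one. In alternatives chosen after seeing the data it was 0.786 without the 25 acta2/elnb cells and 1.19 at 2000 UMIs per cell. VIC-like over VEC-like cells, at resolution 0.3, with the 5 genes included and with list genes left out, gave 2.17, 2.11 and 2.13 for postna, 179.5, 200.2 and 199.9 for postnb, 19.8, 19.4 and 20.0 for thbs1b and, inverted, 114, 109.5 and 96.0 for spp1. With cells classed one by one it was 29.2 for thbs1b, 8.32 for spp1 and 6.86 for sparc, and for sparc it was 7.13 at resolution 0.3, 10.03 with libraries clustered alone, 9.41 without cells under 5000 UMIs and 7.08 as a mean over cells. VEC-like cells at 72 over 48 hpf gave 50.3 for spp1 and 1.79 for sparc at resolution 1.0. Libraries clustered alone gave 45.5 for spp1, 6.31 for postna and 1.96 for sparc, including the 5 genes 25.3, 12.3 and 2.65, leaving list genes out 48.7 for spp1 and 95.2 for postna, and classing cells one by one 143 for spp1 and 0.907 for sparc. Without cells under 5000 UMIs sparc was 0.998. For chamber cells over the largest 48 hpf cluster postna was 31.1 at resolution 0.3, 232.5 at 1.0, 203.7 with libraries alone and 36.8 without list genes, and sparc was 2.34, 2.12, 2.10 and 2.69 times lower in the same order and 3.95 with the 5 genes included. Thrombocyte-like over chamber cells, 55.7 for thbs1b, was 39.8 with cells classed one by one.

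Counts of genes past 2-fold moved with the filter, in the order minimum of 50 CPM, no minimum and 10 added to each CPM. VIC-like over VEC-like cells had 354, 2524 and 628 higher and 323, 1414 and 461 lower, and over chamber cells 439, 2842 and 851 higher, with 315 and 1165 lower for the first 2 settings. VEC-like over chamber cells had 366, 1982 and 537 higher and 288, 1274 and 409 lower. At 72 over 48 hpf VEC-like cells had 198, 1964 and 298 higher and 147, 845 and 176 lower, and chamber cells over the largest 48 hpf cluster 222, 1572 and 324 higher and 263, 1191 and 330 lower. Thrombocyte-like over other blood-like cells had 696, 3505 and 1108 higher, with 503 and 2856 lower for the first 2. No paired analysis was possible because each age has 1 library. Depth limited low levels most, since 72 hpf cells had a median of 6316 UMIs, and groups under 30 cells rest on few UMIs.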
